A study of Homo sapiens with 12 samples.

Results

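*CXCL9*, *CXCL10* and *CXCL11* encode the chemokines that bind the receptor CXCR3. They were the 3 genes chosen by name from the 45416 genes measured by RNA-seq in 12 libraries of U251 cells, an established human glioblastoma line. Cells had been transfected with a control siRNA (siNC) or with 1 of 2 siRNAs against *PD-L1* (siPDL1-1 and siPDL1-2) and were sequenced unstimulated or after IFNγ, which gave 6 groups of 2 libraries. Every group carried a transfected siRNA, and the labels give siNC cells as WT and both other siRNAs as *PD-L1* knockdown. The IFNγ groups received 100 U/ml for 24 h, starting 48 h after transfection. A single cell line and 2 siRNA sequences were used, and neither cells without siRNA nor a rescue of *PD-L1* was part of the groups compared here. Per the methods, the 2 libraries of a group came from independent experiments.

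CXCR3 sits on activated T cells and NK cells, and its ligands draw these cells into inflamed tissue and tumors. Their genes stand side by side on chromosome 4 and are textbook targets of IFNγ, which acts through the kinases JAK1 and JAK2 and raises the transcription factor IRF1. NF-κB and interferon-stimulated response elements add to the transcription of *CXCL10* in particular, which also responds to type I interferon. In the brain, astrocytes and glioma cells can make these chemokines, while the receptor is carried by the lymphocytes that they attract.

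The depth of a library, counted as reads on genes, ran from 17101069 for siPDL1-2 with IFNγ to 55657393 for siNC with IFNγ. The values below are the authors' normalized CPM, which are read counts scaled to library size, in which 1 read stood for 0.0187 to 0.0586 CPM. Markers of glioma or astroglial cells were high in part. Means over the 12 libraries were 3502 CPM for the filament gene *VIM*, 523 CPM for the hyaluronan receptor *CD44* and 161 CPM for the stem cell factor *SOX2*. The astrocyte filament gene *GFAP* (4.38 CPM) and *S100B* (3.70 CPM) were low, and *OLIG2* reached at most 0.359 CPM. Markers of blood cells that could carry CXCR3 were near 0. *PTPRC*, the pan-leukocyte gene, reached at most 0.176 CPM, and *CD3E*, a T-cell receptor chain, at most 0.0240 CPM.

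In the files' GRCh38 coordinates the 3 genes lie on the minus strand of chromosome 4. *CXCL9* (ENSG00000138755) occupies chr4:76001275-76007509, *CXCL10* (ENSG00000169245) chr4:76021118-76023497 and *CXCL11* (ENSG00000169248) chr4:76033682-76041415. Gaps of 13608 and 10184 bases separate them. Each has 4 exons in its canonical GENCODE v44 transcript, and these transcripts measure 2761, 1175 and 1479 bases. *ART3*, an ADP-ribosyltransferase gene on the plus strand (chr4:76011184-76112802 in the files), spans *CXCL10* and *CXCL11*. Reads were counted on both strands, but 0 exonic bases of the chemokine genes were shared with *ART3* exons in this annotation.

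The 250 bases before each start site are shown, because the 3 genes rose together with IFNγ and differed in how far they were lowered by the siRNAs. They come from the promoter table of RefSeq, in which all 3 genes were matched (GRCh38.p14, minus strand, written 5′ to 3′), for *CXCL9* chr4:76007510-76007759, for *CXCL10* chr4:76023498-76023747 and for *CXCL11* chr4:76036071-76036320. Capitals mark matches to any of 3 motifs searched on both strands, namely the interferon-stimulated response element (ISRE, GAAANNGAAA), the gamma-activated sequence (GAS, TTCNNNGAA) and the NF-κB site (GGGANNTNCC).
*CXCL9*: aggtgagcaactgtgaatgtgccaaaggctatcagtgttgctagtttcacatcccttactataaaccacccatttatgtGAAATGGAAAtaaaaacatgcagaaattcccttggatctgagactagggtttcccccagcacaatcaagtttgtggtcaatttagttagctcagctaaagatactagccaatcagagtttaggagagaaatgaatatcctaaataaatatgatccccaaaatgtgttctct
*CXCL10*: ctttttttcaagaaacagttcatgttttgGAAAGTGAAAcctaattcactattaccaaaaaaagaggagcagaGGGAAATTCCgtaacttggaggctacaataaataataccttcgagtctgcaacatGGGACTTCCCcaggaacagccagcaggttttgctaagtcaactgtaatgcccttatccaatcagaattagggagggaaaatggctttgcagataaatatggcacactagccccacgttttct
*CXCL11*: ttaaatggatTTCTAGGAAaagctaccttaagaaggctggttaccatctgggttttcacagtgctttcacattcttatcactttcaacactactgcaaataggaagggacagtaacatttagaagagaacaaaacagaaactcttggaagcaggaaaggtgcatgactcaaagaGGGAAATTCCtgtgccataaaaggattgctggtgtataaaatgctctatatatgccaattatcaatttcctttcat

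*CXCL9* held 1 ISRE match, GAAATGGAAA, at 171 to 162 bases before the start. *CXCL10* held 1 ISRE match, GAAAGTGAAA, at 221 to 212 bases before the start, and 2 NF-κB matches, GGGAAATTCC at 177 to 168 and GGGACTTCCC at 122 to 113 bases before it. *CXCL11* held the NF-κB match GGGAAATTCC at 76 to 67 bases before its start, and 2 GAS matches, TTCTAGGAA at 240 to 232 bases before and TTCCAAGAA at 19 to 27 bases after the start. The matches thus differed among the 3 genes. Over 35116 promoters of the same table, with 250 bases before and 50 after the start, 3.57% held the ISRE letters, 7.66% the GAS letters and 4.93% the NF-κB letters, and no base of a match in the 3 genes belonged to 2 motifs. The RefSeq start of *CXCL11* lies inside the longer gene of the files. A match is a run of letters and not a measured site, variants of these letters were not searched, and binding was not measured. Any link between the matches and the changes with IFNγ or the siRNAs was not tested.

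**Figure D1:**
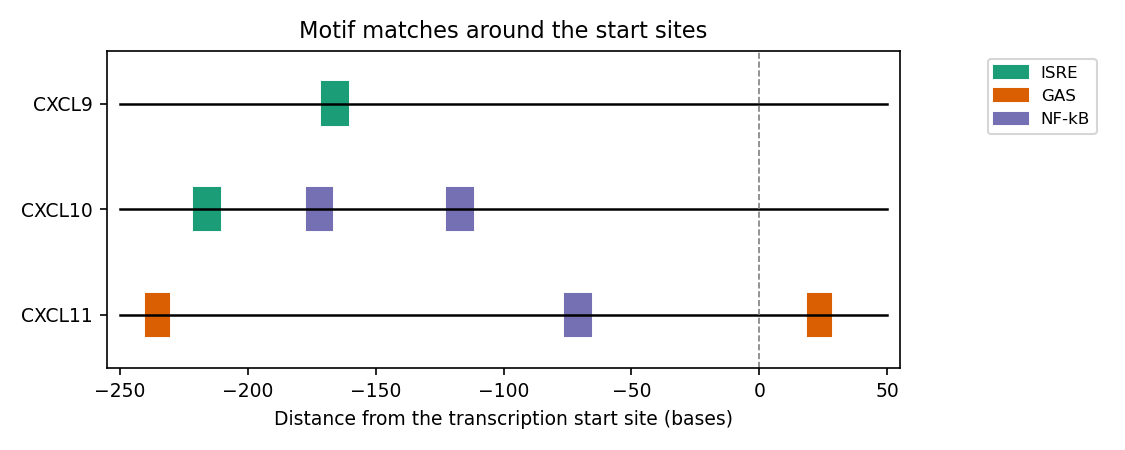
Positions of the motif matches, in bases from the transcription start site (dashed line), for the 3 genes, with the ISRE in green, GAS in orange and NF-κB in purple. *CXCL10* carries 1 ISRE and 2 NF-κB matches, *CXCL9* 1 ISRE match, and *CXCL11* 2 GAS matches and 1 NF-κB match.

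Without IFNγ, U251 cells had almost no RNA of the 3 chemokines, whichever siRNA they had received. *CXCL9* had 0 reads in all 6 unstimulated libraries, where 3 reads over the 2 libraries of a group would equal 0.0390 to 0.050 CPM. *CXCL10* had 0 and 3 reads with siNC, 3 and 3 with siPDL1-1, and 2 and 1 with siPDL1-2. *CXCL11* had 0 and 1 reads with siNC, 0 and 2 with siPDL1-1, and 0 and 0 with siPDL1-2. No library held more than 3 reads of any of them, so differences between siRNAs were not detectable at this depth and no fold change between unstimulated groups is given. Against that background, the same comparisons called 4% (siPDL1-1 against siNC), 6.17% (siPDL1-2 against siNC) and 4.35% (siPDL1-1 against siPDL1-2) of the 17982 genes tested.

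After IFNγ all 3 chemokines were measured in every library. *CXCL10* reached 285 and 309 CPM with siNC, 226 and 261 with siPDL1-1, and 69.7 and 72.5 with siPDL1-2. *CXCL11* reached 61.7 and 67.2 CPM with siNC, 25.0 and 32.5 with siPDL1-1, and 17.2 and 15.6 with siPDL1-2. *CXCL9* reached 39.8 and 37.6 CPM with siNC, 27.7 and 30.8 with siPDL1-1, and 19.4 and 19.7 with siPDL1-2. In each gene the siNC libraries were highest, the siPDL1-2 libraries lowest and the siPDL1-1 libraries between them, with no overlap between any pair of groups. Between 294 and 15241 reads stood behind each of these values.

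**Figure D2:**
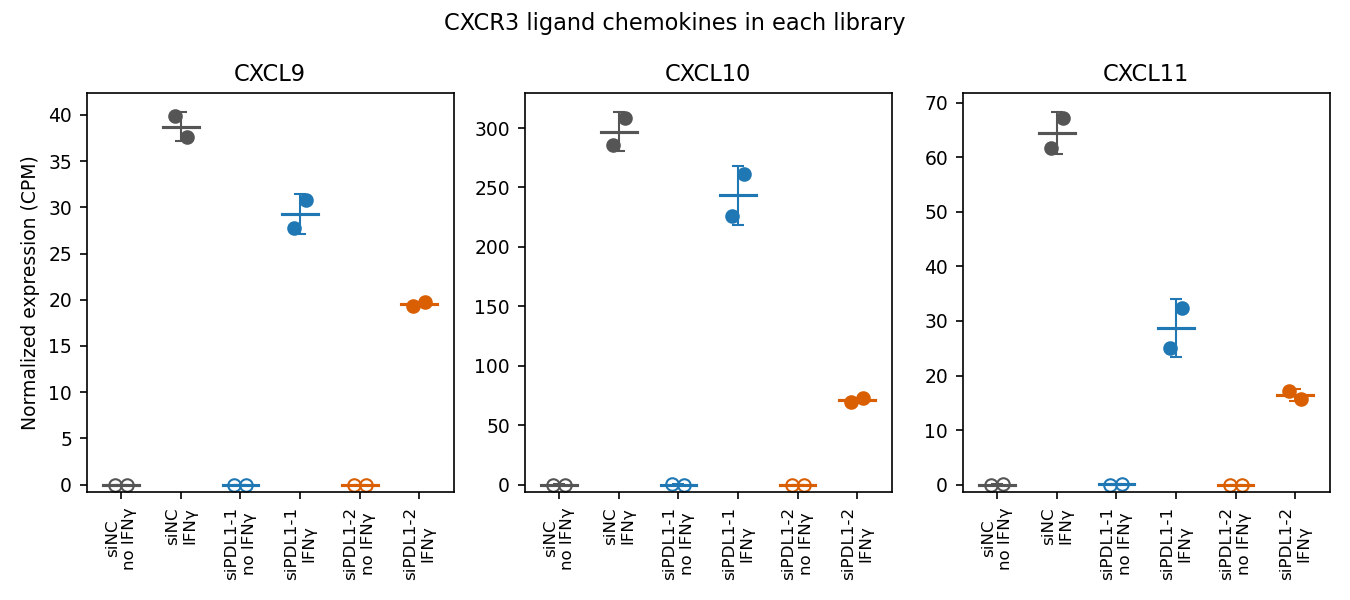
Normalized CPM of each chemokine in every library, on a linear scale of its own for each gene. Points stand for libraries (open without IFNγ), lines for the mean of 2 and bars for the SD. Stimulated libraries of the chemokines lie between 15.6 and 309 CPM, and unstimulated libraries lie at or near 0 CPM.

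Because the transcripts differ in length, levels were compared between genes only as CPM per kilobase of canonical transcript. With siNC and IFNγ, *CXCL10* stood at 253 ± 14.0 CPM per kilobase (SD, n = 2), *CXCL11* at 43.6 ± 2.60 and *CXCL9* at 14.0 ± 0.571. They ranked 250, 1698 and 4937 by this level among 45233 genes. The order *CXCL10*, *CXCL11*, *CXCL9* was the same in the other stimulated groups. With siPDL1-1 the levels were 207 ± 21.0, 19.4 ± 3.56 and 10.6 ± 0.792 CPM per kilobase, and with siPDL1-2 they were 60.5 ± 1.72, 11.1 ± 0.768 and 7.07 ± 0.0893. Libraries of neighbouring genes in this order did not overlap in any stimulated group, and *CXCL10* with siPDL1-2, its lowest group, still stood above *CXCL11* in its highest.

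The increase with IFNγ was called for all 3 chemokines in each of the 3 siRNA settings, at a background of 6.67% of 17982 genes called higher with siNC, 5.58% with siPDL1-1 and 3.62% with siPDL1-2. Genes were called at an FDR under 0.01 and a fold change over 1.5. From the reads of each group, *CXCL10* rose 5923-fold with siNC (95% counting interval 2026 to 28722), 3068-fold with siPDL1-1 (1409 to 8360) and 1775-fold with siPDL1-2 (607 to 8613). *CXCL11* rose 3855-fold with siNC (692 to 152280) and 1071-fold with siPDL1-1 (296 to 8848), and was at least 403-fold higher with siPDL1-2. For *CXCL9*, at least 775-fold higher levels were measured with siNC, at least 741-fold with siPDL1-1 and at least 486-fold with siPDL1-2. The wide intervals come from the 1 to 6 unstimulated reads of a group, the lower bounds set a group without reads at 3 reads, and both cover counting error only. On the log2(CPM + 1) scale that limma tested, which understates changes from near 0, the increases of *CXCL10* were 8.17 with siNC, 7.82 with siPDL1-1 and 6.12 with siPDL1-2.

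*CD274*, which encodes PD-L1 and is itself induced by IFNγ, served as the check of the knockdown. It stood at 4.60 and 4.91 CPM in unstimulated siNC libraries, 2.67 and 2.73 with siPDL1-1, and 3.57 and 3.45 with siPDL1-2. After IFNγ it stood at 71.2 and 76.0 CPM with siNC, 60.9 and 66.7 with siPDL1-1, and 37.5 and 35.0 with siPDL1-2. Its libraries did not overlap between siRNAs in either state, and the siRNA with the lower level differed between the states. Without IFNγ *CD274* was called lower than with siNC with siPDL1-1 (log2 -0.64, SE 0.076, limma FDR 1.76e-05) and not with siPDL1-2 (log2 -0.35, SE 0.076, limma FDR 0.00183), whose fold change was under the threshold. After IFNγ the log2 fold change against siNC was -0.20 with siPDL1-1 (SE 0.073, limma FDR 0.0604) and -1.001 with siPDL1-2 (SE 0.073, limma FDR 2.79e-05), and the latter was called. IFNγ raised *CD274* 15.3-fold with siNC, 23.3-fold with siPDL1-1 and 10.2-fold with siPDL1-2, by reads.

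The comparison of each siRNA with siNC after IFNγ addressed the effect of siRNAs against *PD-L1* on the chemokines, although *CD274* was not called lower with siPDL1-1 after IFNγ. With siPDL1-2, *CXCL10* fell to 23.9% of the siNC mean, *CXCL11* to 25.5% and *CXCL9* to 50.4%. All 3 were called lower, at a background of 1.11% of 17148 genes called lower. *CXCL10*, the main CXCR3 ligand here, had a log2 fold change of -2.05 (SE 0.074, 95% interval -2.21 to -1.88, limma FDR 2.38e-07), the 2nd smallest p-value and the 5th largest decrease of all genes tested. *CXCL11*, the ligand known for the tightest binding of CXCR3, had -1.91 (SE 0.112, 95% interval -2.16 to -1.66, limma FDR 1.18e-05), the 8th largest decrease. For *CXCL9* the value was -0.95 (SE 0.079, 95% interval -1.13 to -0.78, limma FDR 4.83e-05), the 45th largest decrease. All 3 calls held when any 1 of the 4 siNC and siPDL1-2 libraries after IFNγ was left out, while the genes called in either direction numbered 499 with all libraries, 172 without the first siPDL1-2 library and 143 without the second.

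With siPDL1-1 the decreases were smaller and only *CXCL11* was called, 1 of 3 at a background of 1.76% called lower. It stood at 44.6% of the siNC mean, with a log2 fold change of -1.15 (SE 0.112, 95% interval -1.40 to -0.90, limma FDR 5.64e-05). *CXCL9* stood at 75.6% of the siNC mean, with a log2 fold change of -0.39 (SE 0.079, 95% interval -0.57 to -0.22). Its limma FDR of 0.00401 passed, and its fold change did not reach the threshold. *CXCL10* stood at 82.0%, with -0.29 (SE 0.074, 95% interval -0.45 to -0.12, limma FDR 0.0146), and was not called. Both kept their direction and stayed uncalled when 1 of the 4 libraries compared was left out, but moved in size or FDR. *CXCL10* ranged from -0.18 without the first siPDL1-1 library (limma FDR 0.0772) to -0.39 without the second (limma FDR 0.00225). The limma FDR of *CXCL9* was 0.0254 without the first siNC library and 0.0196 without the first siPDL1-1 library. Both comparisons share the siNC libraries. In bulk RNA, fewer cells that express a chemokine and less of its RNA per cell cannot be told apart.

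**Figure D3:**
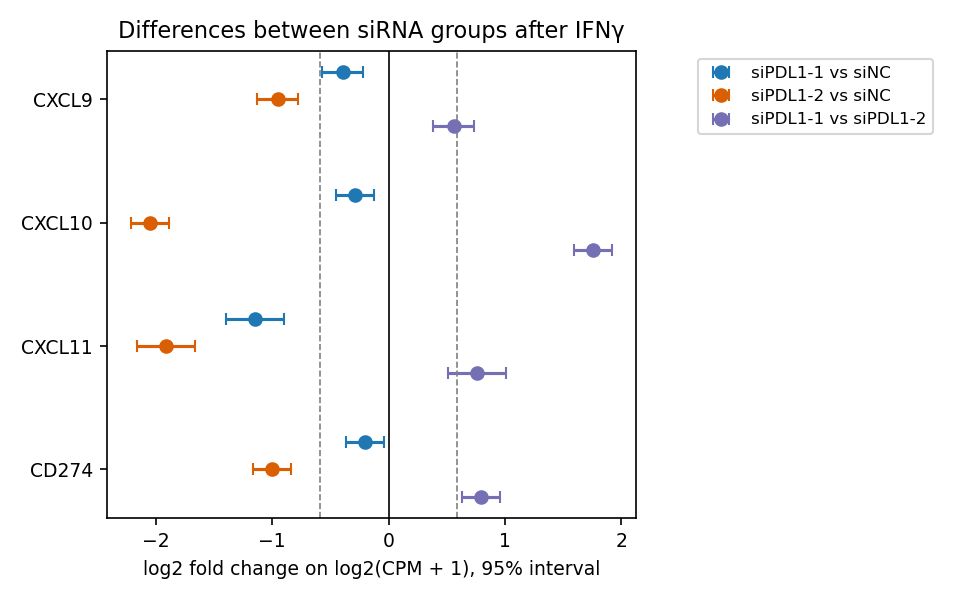
Log2 fold changes after IFNγ with 95% intervals from limma for the 3 chemokines and *CD274*, 1 colour per comparison and dashed lines at a fold change of 1.5 in either direction. The widest spread between the siRNAs is that of *CXCL10*, at -0.29 with siPDL1-1 and -2.05 with siPDL1-2 against siNC.

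The siRNAs were also compared directly. *CXCL10* was 3.38-fold higher with siPDL1-1 than with siPDL1-2 (log2 1.76, SE 0.074, 95% interval 1.59 to 1.92, limma FDR 7.60e-08) and *CXCL11* was 1.69-fold higher (log2 0.76, SE 0.112, 95% interval 0.51 to 1.01, limma FDR 0.00184). These 2 of 3 were called, at a background of 1.73% called higher. *CXCL9* was 1.47-fold higher (log2 0.56, SE 0.079, 95% interval 0.38 to 0.73, limma FDR 0.00114), just under the fold change threshold. *CD274* differed in the same direction (log2 0.80, SE 0.073, limma FDR 5.03e-05). The call for *CXCL11* rested on single libraries. It was not called without the second siPDL1-1 library (log2 0.58, limma FDR 0.00357), without the first siPDL1-2 library (0.83, limma FDR 0.0228) or without the second (0.69, limma FDR 0.0445). Genes called in either direction then numbered 224 without the first and 213 without the second siPDL1-2 library, against 362 with all.

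Ratios between the 3 chemokines within a library stood apart for some siRNAs and overlapped for others. The ratio of *CXCL10* to *CXCL9* was 7.17 and 8.21 with siNC, 8.15 and 8.47 with siPDL1-1, and 3.60 and 3.68 with siPDL1-2. The siPDL1-2 libraries stood apart from the other 4, while siNC and siPDL1-1 overlapped. For *CXCL10* to *CXCL11* the ratio was 4.62 and 4.59 with siNC, 9.03 and 8.04 with siPDL1-1, and 4.04 and 4.64 with siPDL1-2, so that here siPDL1-1 stood apart. *CXCL9* to *CXCL11* was 0.645 and 0.560 with siNC and between 0.949 and 1.26 in the 4 libraries with siRNAs against *PD-L1*. An exact permutation test of 2 libraries against 2 cannot go below p = 0.333, and no test of these ratios was made.

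**Figure D4:**
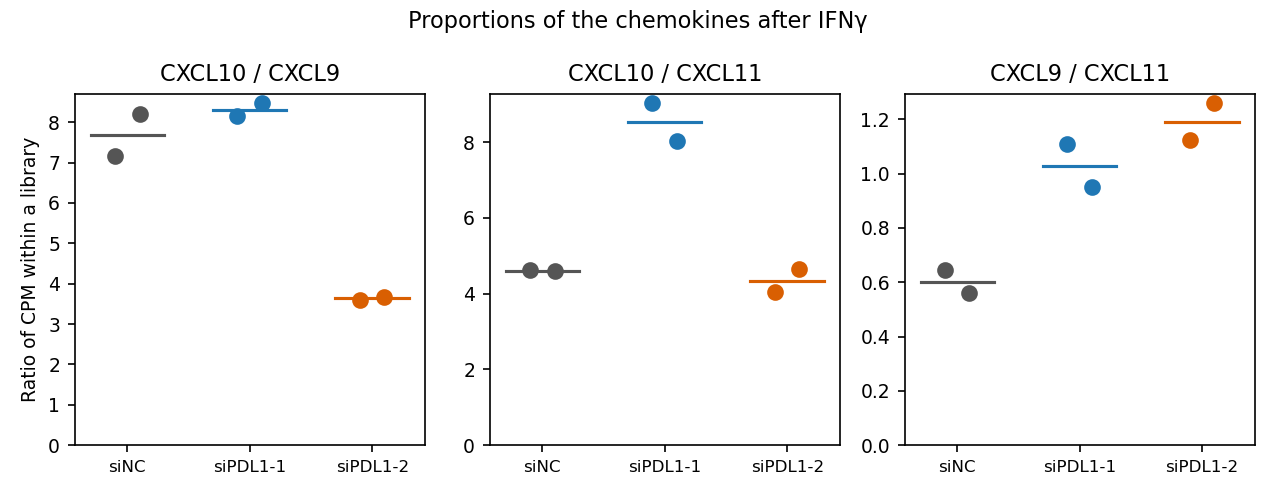
Ratios of CPM between chemokines in each IFNγ library, with lines for the mean of 2. The *CXCL10* to *CXCL9* ratio is 3.60 and 3.68 with siPDL1-2, and the *CXCL10* to *CXCL11* ratio is 9.03 and 8.04 with siPDL1-1.

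Whether the response to IFNγ itself differed from that with siNC was tested as an interaction on the log2(CPM + 1) scale. With siPDL1-2 it was smaller by 2.05 for *CXCL10* (log2 -2.05, limma FDR 2.99e-07), with -1.89 for *CXCL11* (limma FDR 2.27e-05) and -0.95 for *CXCL9* (limma FDR 2.19e-04). All 3 were called, at a background of 5.78% called lower, although the genes called in either direction fell from 1370 to 890 without the second siPDL1-2 library with IFNγ. With siPDL1-1 only *CXCL11* was called (log2 -1.16, limma FDR 6.72e-04), at a background of 0.0779% called lower, and *CXCL10* had -0.34 (limma FDR 0.171) and *CXCL9* -0.39 (limma FDR 0.176). With 0 to 3 unstimulated reads, these values restate the level after IFNγ. The ratio of stimulated to unstimulated reads was not called as different between the siRNAs by count models, in which edgeR's quasi-likelihood test gave FDR values of 0.382 for *CXCL10* and 0.721 for *CXCL11* with siPDL1-2.

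The rest of the CXCR3 axis was expressed in part. The list held the receptor *CXCR3*, the decoys *ACKR1* and *ACKR3*, *CXCR4*, the protease *DPP4*, which trims the ligands, the platelet ligands *PF4* and *PF4V1*, *CXCL13*, and the syndecans *SDC1* and *SDC4*, whose sugar chains hold chemokines at the cell surface. Of 10 genes 5 passed the filter on low reads. *SDC1* was called higher with siPDL1-1, where 3.76% of all genes were called higher, and was the only call of the list against siNC after IFNγ, from 145 and 132 CPM with siNC to 231 and 222 (log2 0.71, limma FDR 3.06e-05). With siPDL1-2 it stood at 192 and 209 CPM (log2 0.54, limma FDR 5.02e-04), under the fold change threshold. The list's median log2 fold change was 0.11 with siPDL1-1 and 0.00 with siPDL1-2, against -0.01 over all genes in both comparisons.

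The other chemokine families were described in the same way. Among 14 further CXC, CX3C and XC chemokines, 6 were tested after IFNγ. Over all genes 1.11% were called lower with siPDL1-2 and 3.76% higher with siPDL1-1. *CXCL8* and *CXCL2*, which attract neutrophils, were called lower with siPDL1-2 (log2 -1.10, limma FDR 0.00101, and log2 -0.78, limma FDR 0.00403), and *CXCL14* was called higher with siPDL1-1 (log2 0.59, limma FDR 0.00566), of which edgeR called all and DESeq2 1. *CXCL8* stood at 3.20 and 2.80 CPM with siNC and 0.938 and 0.793 with siPDL1-2, and it was lower after IFNγ than before in siNC cells (log2 -1.09, limma FDR 2.97e-05). Already without IFNγ, *CXCL8*, *CXCL2* and *CXCL3* were called lower than with siNC with both siRNAs by limma, edgeR and DESeq2, 3 of 6 tested at a background of 1.45% with siPDL1-1 (median log2 fold change -0.50) and 1.33% with siPDL1-2 (median -0.45). *CXCL8* then stood at 7.44 and 7.59 CPM with siNC, 1.60 and 1.74 with siPDL1-1, and 1.58 and 1.07 with siPDL1-2. Of 18 CC chemokines 4 were tested after IFNγ. *CCL5*, which attracts T cells, was called higher with siPDL1-1 (log2 3.54, limma FDR 2.10e-08), at 12.4 and 13.9 CPM against 0.262 and 0.166 with siNC and 0 and 0.0661 with siPDL1-2. In the same siPDL1-1 libraries *CXCL11* was called lower.

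Of the genes that carry the IFNγ signal to the promoters, 17 of 18 were tested. With siPDL1-2 limma, edgeR and DESeq2 called 0 of them against siNC after IFNγ, 8 of 17 had an unadjusted limma p under 0.05, as did 35.8% of all genes, and the median log2 fold change was -0.10. *IRF1* stood at 549.5 and 531 CPM with siNC and at 369 and 396 with siPDL1-2 (log2 -0.50, limma FDR 3.82e-04), with no overlap and a fold change under the threshold. *JAK2* stood at 61.3 and 65.1 CPM with siNC and 58.2 and 56.4 with siPDL1-2 (log2 -0.14, limma FDR 0.210). With siPDL1-1, 6 of 17 were called higher and 1 lower, at backgrounds of 3.76% and 1.76%, and the median was 0.11. *JAK2* was higher (log2 0.67), as were *STAT2* (1.59), the feedback inhibitor *SOCS1* (1.67) and *USP18* (2.49), and *IRF1* was the lower one (log2 -0.63, limma FDR 2.83e-05). IFNγ raised 10 of the 17 in each of the 3 siRNA settings, at backgrounds of 6.67%, 5.58% and 3.62% with siNC, siPDL1-1 and siPDL1-2.

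Of 14 genes of the NF-κB pathway, 3 were called lower than with siNC after IFNγ with siPDL1-2 by limma, edgeR and DESeq2, at a background of 1.11%. With siPDL1-1 these tools called 0, and 2 had an unadjusted limma p under 0.05, as did 39.6% of all genes. They were the feedback inhibitors *NFKBIA* (log2 -0.72, limma FDR 1.54e-04) and *TNFAIP3* (-0.87, limma FDR 1.00e-04), and *NFKBIZ* (-0.77, limma FDR 4.27e-04), an IκB family member of the nucleus. *TNFAIP3* stood at 22.9 and 24.0 CPM with siNC, 23.6 and 22.7 with siPDL1-1, and 12.6 and 12.1 with siPDL1-2. In all 3 genes the siPDL1-2 libraries were the lowest. The list's median log2 fold change was -0.15 with siPDL1-2 and 0.00 with siPDL1-1. Without IFNγ, 3 of 14 (*RELB*, *NFKBIB* and *TNFAIP3*) were called lower with siPDL1-2 by limma and 4 by edgeR and DESeq2, at a background of 1.33%, and the median was -0.30. Their part in the level of the chemokines was not tested.

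Among 18 genes known for induction by IFNγ, all were called higher with IFNγ in each of the 3 siRNA settings, at the backgrounds of 6.67% with siNC, 5.58% with siPDL1-1 and 3.62% with siPDL1-2. In the comparison of siPDL1-2 with siNC after IFNγ, the log2 fold changes of *CXCL10* and *CXCL11* lay below those of all 18. Called lower with siPDL1-2 were *IDO1* (log2 -1.09), *CD274*, *GBP4* (-0.70) and *GBP5* (-0.61), 4 of 18 at a background of 1.11%, with a median of -0.21. The antigen presentation genes *CD74* (log2 -0.02, limma FDR 0.842) and *TAP2* (0.21, limma FDR 0.0174) were not called. With siPDL1-1, *IDO1*, which degrades tryptophan, was called lower (log2 -1.10, limma FDR 1.73e-07) and *TAP2* higher (0.88), 1 of 18 in each direction at backgrounds of 1.76% called lower and 3.76% called higher, and the median was -0.01. *IDO1* stood at 508 and 516 CPM with siNC, 243 and 233 with siPDL1-1, and 237 and 244 with siPDL1-2, so that the siPDL1-1 and siPDL1-2 libraries overlapped, unlike those of the chemokines.

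Genes that lean towards type I interferon were mostly higher in siPDL1-1 cells. After IFNγ, 16 of 17 were called higher with siPDL1-1 than with siNC, at a background of 3.76%, the median log2 fold change being 3.36. With siPDL1-2, where 1.8% of all genes were called higher, 2 of 17 were called (*IFI6* 0.76 and *IFI27* 0.79), and the median was 0.21. *OAS2*, an antiviral enzyme, stood at 16.9 and 17.7 CPM with siNC, 372 and 368 with siPDL1-1, and 25.0 and 22.6 with siPDL1-2. Already without IFNγ, 12 of the 17 were called higher with siPDL1-1, at a background of 2.55%, while *CXCL10* stayed at 3 reads in both libraries. Of 16 genes of RNA sensing and type I interferon, 7 were called higher with siPDL1-1 after IFNγ by limma and edgeR and 5 by DESeq2, at the background of 3.76%, among them the RNA sensor *RIGI* (log2 3.03), *IFIH1* (1.86), *IFNB1* (0.82) and *IFNL1* (1.41). With siPDL1-2 limma, edgeR and DESeq2 called 0 of them, and 9 of 16 had an unadjusted limma p under 0.05, as did 35.8% of all genes. The libraries with these increases were those in which *CXCL11* was called lower and *CXCL9* and *CXCL10* were not.

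**Figure D5:**
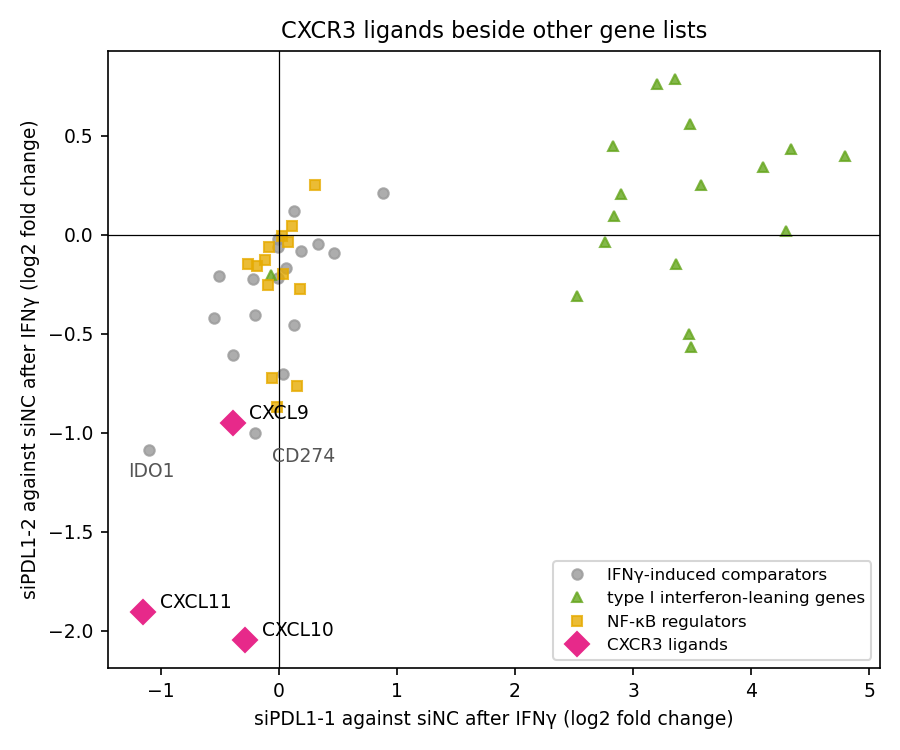
Log2 fold changes after IFNγ against siNC, with siPDL1-1 on the horizontal and siPDL1-2 on the vertical axis, for the 3 chemokines (diamonds), IFNγ-induced genes, type I interferon-leaning genes and NF-κB genes. Both axes share the siNC libraries. *CXCL10* and *CXCL11* lie lowest, at -2.05 and -1.91 with siPDL1-2, and 16 of 17 type I interferon-leaning genes lie far to the right.

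Regulators of AU-rich mRNA, to which chemokine transcripts belong, held 0 of 9 calls against siNC after IFNγ with either siRNA by limma, edgeR and DESeq2, with an unadjusted limma p under 0.05 for 2 with siPDL1-1 and 5 with siPDL1-2, where 39.6% and 35.8% of all genes had one. The neighbourhood on chromosome 4, taken as 500000 bases to either side, held 26 genes, of which 14 were tested. Against siNC after IFNγ 0 were called with either siRNA by limma, edgeR and DESeq2, and 8 with siPDL1-1 and 7 with siPDL1-2 had an unadjusted limma p under 0.05, against 39.6% and 35.8% of all genes. IFNγ raised 3 of the 14 in siNC cells, at a background of 6.67%. One was *ART3*, which spans *CXCL10* and *CXCL11* and stood at 2.83 and 2.66 CPM with siNC, 1.67 and 1.51 with siPDL1-1, and 2.11 and 1.92 with siPDL1-2 after IFNγ. Against siNC its log2 fold change was -0.53 with siPDL1-1 (limma FDR 0.00951), under the fold change threshold, and -0.31 with siPDL1-2 (limma FDR 0.0993). Unlike *CXCL10*, *ART3* thus had its lowest libraries with siPDL1-1.

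Markers of other cell types were summed in each library beside these results. The sum of 11 leukocyte genes was 42.7 and 42.4 CPM with siNC and IFNγ, 76.0 and 81.0 with siPDL1-1, and 47.8 and 51.5 with siPDL1-2, almost all from the lysosomal gene *CD68*, the single gene of the list with a mean of at least 1 CPM. *CD3E* was at 0 in all IFNγ libraries. The sum of 4 fibroblast and pericyte genes was 124 and 119 CPM with siNC and IFNγ, 218 and 197 with siPDL1-1, and 131 and 136 with siPDL1-2, led by *COL1A2*. All 4 of these genes had a mean of at least 1 CPM. The sum of 4 endothelial genes was 2.04 and 2.01 CPM with siNC and IFNγ, 3.09 and 3.25 with siPDL1-1, and 2.23 and 2.81 with siPDL1-2. Only *VWF* among them had a mean of at least 1 CPM. The sum of 9 glioma or astroglial genes, mostly *VIM*, was 4581.6 and 4435.9, 4053.5 and 4080.3, and 4812.9 and 4980.4 CPM in the same order. After IFNγ the leukocyte, fibroblast and endothelial sums were thus highest, and the glioma sum lowest, in siPDL1-1 libraries. Single glioma genes differed. *VIM*, *NES*, *EGFR* and *CD44* were lowest in siPDL1-1 libraries, while *SOX2*, *FABP7*, *S100B* and *OLIG2* overlapped siNC. *GFAP* was highest there, at 3.80 and 4.28 CPM against 2.58 and 2.39 with siNC. In these libraries the chemokines stood between siNC and siPDL1-2, and the part of the markers in the result was not tested.

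The genes whose pattern over the 6 IFNγ libraries was most like that of each chemokine were found among 13826 genes with at least 1 CPM in every IFNγ group, by the root mean square difference of centred log2(CPM + 1). For *CXCL10* the nearest gene was *CXCL11* (0.45), followed by *CD274* (0.48), *DESI2* (0.48), *RGS4* (0.49) and Z83844.2 (0.49). This difference is the same in both directions and grows with the size of a change as well as with its shape, so that genes that hardly change can lie nearer to *CXCL9* than *CXCL11* (0.42) or *CXCL10* (0.55) did. Ranks counted from different chemokines are therefore not compared. *CXCL11* lay nearest to *DESI2* (0.26), *TWF1* (0.28), *FBXO8* (0.34), *LINC00707* (0.35) and *BOLA3* (0.36). *CXCL9* lay nearest to *BIRC3* (0.08), *GCLM* (0.09), *FBXO32* (0.09), *FTH1* (0.09) and *TRIM16L* (0.09). *DESI2* stood at 65.1, 39.1 and 25.6 CPM on average with siNC, siPDL1-1 and siPDL1-2 after IFNγ and at 51.4 CPM in unstimulated siNC cells, where the chemokines were near 0. The 6 libraries are 3 groups of 2, so that likeness reflects mainly 3 levels.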

How the data were processed

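RNA-seq values of 12 libraries of U251 cells were used, grouped by the sample labels. Per the methods, the authors used CLC Genomics Workbench 22.0.2 to trim reads, to map them to GRCh38 (Ensembl), to count both strands and to normalize. The signal values are the normalized CPM deposited by the authors. In every library 100% of values were whole multiples of 1 read, so reads were recovered from them. The tolerance was 0.02 read and widened in proportion to the value for genes with many reads, where the check is weak. Columns summed to 0.965 to 1.042 times the total of plain CPM.

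Genes were filtered with filterByExpr on recovered reads (minimum count 10, minimum total 15), and log2(CPM + 1) was tested with limma 3.58.1 (trend, robust) with Benjamini-Hochberg adjustment over all genes, called at FDR < 0.01 and fold change > 1.5. IFNγ libraries were fitted as 3 groups for comparisons between siRNAs after IFNγ, and all 12 as 6 groups otherwise. Counting intervals are exact (Clopper-Pearson, 95%). Alternatives were edgeR 4.0.16 and DESeq2 1.42.0 on recovered reads, another pseudocount, no filter, a replicate block, no fold threshold, all 12 libraries in 1 fit, and each library of the groups compared left out.

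In simulated libraries, 200 genes were shifted by a log2 fold change of 1.5, and limma found 193 (siPDL1-2 against siNC after IFNγ, 16875 genes) and 196 (IFNγ in siNC, 17643 genes), with 6 and 1 false calls. The shifted genes had a mean of at least 1 CPM and all others were left unchanged. Levels near the floor, such as those of the unstimulated chemokines, were thus not covered. Replicates differed beyond sampling noise (mean chi-square 1.85 to 7.76 per gene).

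The genes, lists and tests were chosen with earlier results of these data known. The 3 chemokines and *CD274* are always named, and up to 8 members of each list. GENCODE v44 matched 45233 of 45416 gene IDs, 99.9% of them at overlapping coordinates. Motifs and figures used Python 3.11.15, numpy 2.4.6, pandas 2.3.3, scipy 1.17.1 and matplotlib 3.10.9, and R was 4.3.3.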

Additional observations from a re-analysis of the deposited data

Results flagged for a closer look

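The responses to IFNγ with siPDL1-2 and with siNC differed by the interaction test of limma on log2(CPM + 1), by -2.05 for *CXCL10* (SE 0.121, FDR 2.99e-07), -1.89 for *CXCL11* (SE 0.169, FDR 2.27e-05), -0.95 for *CXCL9* (SE 0.139, FDR 2.19e-04) and -0.65 for *CD274* (SE 0.108, FDR 5.37e-04). With siPDL1-1, *CXCL11* differed by -1.16 (SE 0.169, FDR 6.72e-04). Neither edgeR nor DESeq2 called any of these differences, and edgeR gave *CXCL11* with siPDL1-2 the opposite sign (log2 0.54). Each difference was shown by both IFNγ libraries of the siRNA. For the chemokines the unstimulated level was 0 to 3 reads in a library, so the difference is one of the level after IFNγ.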

How the results depend on the processing

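Of 273 alternative values of the chemokines, 257 kept their direction and their side of the threshold, 11 lost the call with the same sign, 3 gained it and 2 changed sign. Among the latter, *CXCL11* in the siPDL1-2 interaction by edgeR lost its call as well. Of 121 values of *CD274*, 116 kept both direction and side. Called increases with IFNγ kept direction and call but moved in size, for *CXCL9* with siNC from 5.27 to 13.39 and for *CXCL11* with siPDL1-2 from 4.06 to 12.15 over the alternatives. The interactions lost the most calls, and the cause was not tested. With siPDL1-2, edgeR and DESeq2 gave -1.74 and -1.71 for *CXCL10*, 0.54 (sign changed) and -0.15 for *CXCL11*, -0.98 and -0.56 for *CXCL9*, and -0.55 and -0.54 for *CD274*, none called. With siPDL1-1 they gave -1.69 and -1.73 for *CXCL11*, and a pseudocount of 0.1 gave -1.29, none called, and DESeq2 gave 0.064 (sign changed) for *CXCL9* and 0.66 (called) for *CD274*.

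Without a fold change threshold, *CXCL9* passed for siPDL1-1 against siNC (-0.39) and for siPDL1-1 against siPDL1-2 (0.56) after IFNγ, and unstimulated *CD274* passed for siPDL1-2 against siNC (-0.35) and for siPDL1-1 against siPDL1-2 (-0.29). Calls then numbered 4901, 4122 and 3080 for IFNγ with siNC, siPDL1-1 and siPDL1-2, 2692, 1659 and 830 after IFNγ and 3379, 5107 and 4338 unstimulated for siPDL1-1 against siNC, siPDL1-2 against siNC and siPDL1-1 against siPDL1-2, and 293 and 3067 for the interactions of siPDL1-1 and siPDL1-2.

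Leaving out 1 library of the groups compared moved the calls after IFNγ to between 143 and 700 (499 with all) for siPDL1-2 against siNC, lowest without the second siPDL1-2 library (172 without the first), and to between 213 and 398 (362 with all) between the siRNAs, lowest without the second siPDL1-2 library (224 without the first). Between the siRNAs it moved *CXCL11* to 0.58 to 0.94 and *CXCL9* to 0.48 to 0.63, the latter called without the first siPDL1-1 library. A lone library left in a group is assumed to vary like the other groups. The siPDL1-2 interaction gave between 890 and 1662 calls (1370 with all), lowest without the second IFNγ library of siPDL1-2.

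Replicate numbers did not pair the libraries (correlations of deviations -0.187 to 0.252 over 15 pairs of groups, 2 over 0.1), and with a replicate block 46 of 46 results kept direction and call, such as 489 calls and -2.05 for *CXCL10* for siPDL1-2 against siNC after IFNγ. Each group held 2 libraries of 1 cell line, and unstimulated chemokines were below what these depths can compare.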
